A study of Mus musculus with 7 samples.

Results

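A list of 47 genes of macrophages and other myeloid cells was followed across all 7 arrays of a study of mouse embryonic fibroblasts (MEFs) and embryonic stem cells (ESCs). Genes were found by the symbol that the platform annotation gives as the only one for a row, and 44 of the 47 were measured, each by 1 row, among 13562 measured genes. Clec7a, Slc11a1 and Aif1 had no such row and were not analysed here. Macrophages are phagocytes of the innate immune system that live in most tissues of the embryo and are carried along when fibroblasts are grown from it. They depend on the growth factor receptor Csf1r and on the transcription factor PU.1, the product of Spi1, and they read their surroundings through Fc receptors, lectins, scavenger receptors, Toll-like receptors and complement. Fibroblasts and ESCs are not known to make most of these proteins, so their RNA in a MEF culture is commonly read as a trace of macrophages in the dish.

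The study hybridised 7 mouse RNA samples to 1 Affymetrix array each, so no condition has a replicate, no p-value is given and no error can be put on a value. Values are the deposited log2 values, and differences are log2 differences of 2 arrays. The arrays were Nanog KO fibroblasts derived from Nanog-/- ESCs and transduced with a lentivirus carrying OSKM (Oct4, Sox2, Klf4 and Myc, the factors used to reprogram cells) for 8 days; MEFs labelled Utx KO (UTX-/Y) with doxycycline (DOX), the drug that starts factor expression; MEFs labelled Utx KO without DOX; WT (UTX+/Y) MEFs with DOX; WT MEFs without DOX; and V6.5 ESCs, Utx KO and WT. All 4 Utx MEF cultures carry V19-OSKM in their titles, including those that got no DOX, and neither the embryos' age nor the passage of the cells is given in the sources used here. The labels name a single growth medium, an ESC medium, for all samples.

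The labels of the KO MEFs need care before anything is read from them. Kdm6a, the gene of Utx, read 7.57 on the array labelled KO with DOX, against 8.93 in WT MEFs with DOX, and 6.32 on the array labelled KO without DOX, against 8.22 in WT MEFs without DOX. In ESCs it read 7.97 in KO and 9.12 in WT cells. Pou5f1, the gene of the DOX-driven factor Oct4, read 5.12 on the array labelled KO with DOX and 11.26 in the one labelled KO without DOX, whereas it read 12.59 in WT MEFs with DOX and 8.19 in WT MEFs without. The KO libraries are therefore named by their labels throughout, and directions drawn from them hold for the labels as given. The Nanog KO array had a median of 8.55 over all rows, against 7.68 to 7.84 on the other 6, and a value on it is open to that shift.

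Promoter windows of 5 members are shown because most members shared an order of arrays and PU.1, which binds DNA at a GAGGAA core, is the textbook regulator of many of them. Each window runs from 250 bases before to 50 bases after the start of the gene in RefSeq (build GRCm38.p6), 5′ to 3′ on the gene's strand, with matches to GAGGAA or its reverse complement TTCCTC in capitals. Itgam, C1qb, Cd53 and Mrc1 hold the core in this window, and Lyz2 does not.
Itgam (chr7:128062390-128062689, + strand): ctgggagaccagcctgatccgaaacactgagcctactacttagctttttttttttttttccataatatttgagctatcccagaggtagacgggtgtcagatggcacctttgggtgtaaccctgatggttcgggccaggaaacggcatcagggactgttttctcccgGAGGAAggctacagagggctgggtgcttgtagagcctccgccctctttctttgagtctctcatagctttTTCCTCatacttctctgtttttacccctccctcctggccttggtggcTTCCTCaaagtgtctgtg
C1qb (chr4:136886151-136886450, - strand): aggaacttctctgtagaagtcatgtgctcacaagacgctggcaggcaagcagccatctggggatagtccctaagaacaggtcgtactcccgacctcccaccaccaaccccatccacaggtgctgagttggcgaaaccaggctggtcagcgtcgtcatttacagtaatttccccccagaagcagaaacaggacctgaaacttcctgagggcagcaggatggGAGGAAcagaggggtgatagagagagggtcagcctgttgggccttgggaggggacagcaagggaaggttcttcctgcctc
Cd53 (chr3:106790100-106790399, - strand): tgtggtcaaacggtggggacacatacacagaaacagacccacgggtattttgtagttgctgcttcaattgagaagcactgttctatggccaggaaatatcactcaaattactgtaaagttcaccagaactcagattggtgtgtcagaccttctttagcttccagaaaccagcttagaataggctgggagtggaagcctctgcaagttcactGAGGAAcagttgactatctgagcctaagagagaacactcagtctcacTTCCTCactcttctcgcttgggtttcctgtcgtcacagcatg
Mrc1 (chr2:14229164-14229463, + strand): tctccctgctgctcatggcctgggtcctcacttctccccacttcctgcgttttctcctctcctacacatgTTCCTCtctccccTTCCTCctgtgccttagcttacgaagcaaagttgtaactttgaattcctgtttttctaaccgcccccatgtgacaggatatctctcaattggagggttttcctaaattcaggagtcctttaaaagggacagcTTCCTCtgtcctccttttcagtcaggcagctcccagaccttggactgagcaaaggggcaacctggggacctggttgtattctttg
Lyz2 (chr10:117282223-117282522, - strand): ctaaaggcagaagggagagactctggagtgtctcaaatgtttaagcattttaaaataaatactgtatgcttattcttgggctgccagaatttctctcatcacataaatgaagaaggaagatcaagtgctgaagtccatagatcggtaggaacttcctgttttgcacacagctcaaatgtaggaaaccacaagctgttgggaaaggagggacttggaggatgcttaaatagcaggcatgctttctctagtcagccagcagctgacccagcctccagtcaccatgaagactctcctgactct

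Windows were found for 31 of the 44 measured members, 35 windows in all. GAGGAA, searched on both strands, lay in 20 of these 35 windows (57.1%), against 28.3% of all 32851 windows of the same length, and in 19 of the 31 members. A form of the core with flanking bases, 10 in all, was searched too and lay in 0 of the 35 windows, against 0.426% of all windows. In Itgam, GAGGAA or its reverse complement began at -84, -15 and 32 relative to the start site, in Mrc1 at -180, -167 and -35, in Cd53 at -39 and 8, and in C1qb at -30. A match is a string of letters and no evidence of binding, and no match says only that these letters are not in this window.

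WT MEFs without DOX had the highest common level of macrophage genes, and WT MEFs with DOX had a level like that of ESCs. The median over the 44 members was 7.55 on the Nanog KO array, 6.63 on the array labelled KO with DOX, 5.79 on the array labelled KO without DOX, 4.94 in WT MEFs with DOX and 8.70 in WT MEFs without DOX, against 4.90 in KO ESCs and 5.01 in WT ESCs. A floor was set at 7.34, the 40th percentile of all values in the table. Above it lay 24 of the 44 members on the Nanog KO array, 13 on the array labelled KO with DOX, 6 on the array labelled KO without DOX, 2 in WT MEFs with DOX and 40 in WT MEFs without DOX, against 2 in each ESC library. Of all genes, 76.8% lay above the floor on the Nanog KO array and 62.0% to 63.4% on the 4 Utx MEF arrays. In bulk RNA, fewer macrophages in a culture and less of these RNAs per macrophage cannot be told apart.

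**Figure D1:**
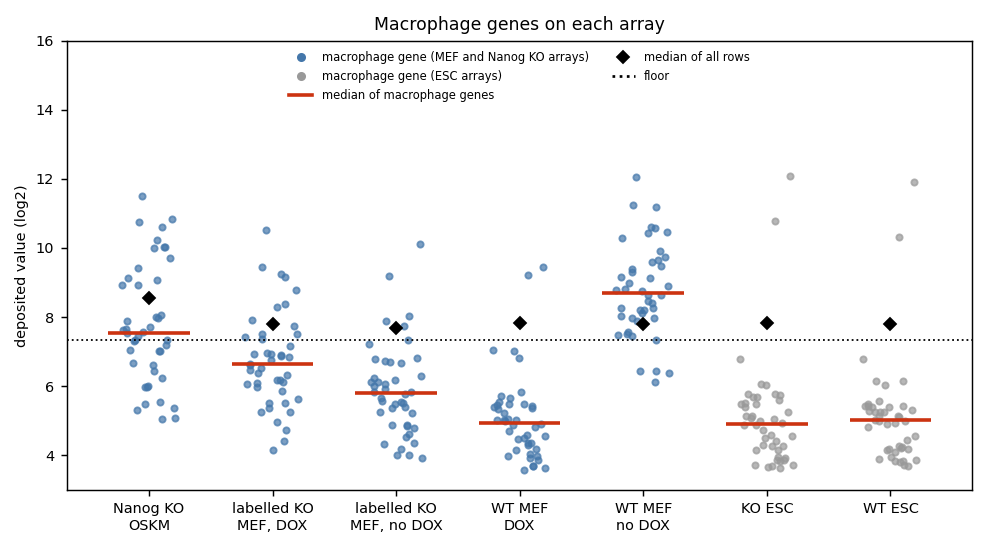
Deposited log2 value of each of the 44 measured macrophage genes (points) on each of the 7 arrays, with their median (red line), the median of all rows of the array (black diamond) and the floor at 7.34 (dotted line). The red line lies above the floor on the Nanog KO array (7.55) and in WT MEFs without DOX (8.70), and in WT MEFs with DOX (4.94) it lies beside that of the ESCs (4.90 and 5.01).

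The order of the libraries was shared by most members. With levels set in the order of the medians, WT MEFs without DOX, the array labelled KO with DOX, the one labelled KO without DOX and WT MEFs with DOX, 36 of the 44 members followed this order, as did 7.55% of all genes. The order was read from the same values, so this count describes how uniform the members were. Of the 44, 31 lay under the floor on the array labelled KO with DOX, 38 on the one without DOX and 42 in WT MEFs with DOX. For most members the order among these arrays is thus one of deposited values under the floor and was not measured. The other 8 were Fcgr1, Fcgr2b, Trem2, Clec4a1, Cd68, Ncf1, Ncf4 and Laptm5. Of the 5 arrays of MEFs and Nanog KO fibroblasts, WT MEFs without DOX were highest for 37 members. The Nanog KO array was highest for the other 7, Adgre1, Tlr2, C1qa, Cybb, Ncf1, Ncf4 and Laptm5. With the array medians aligned it was highest for 1, Ncf4.

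**Figure D2:**
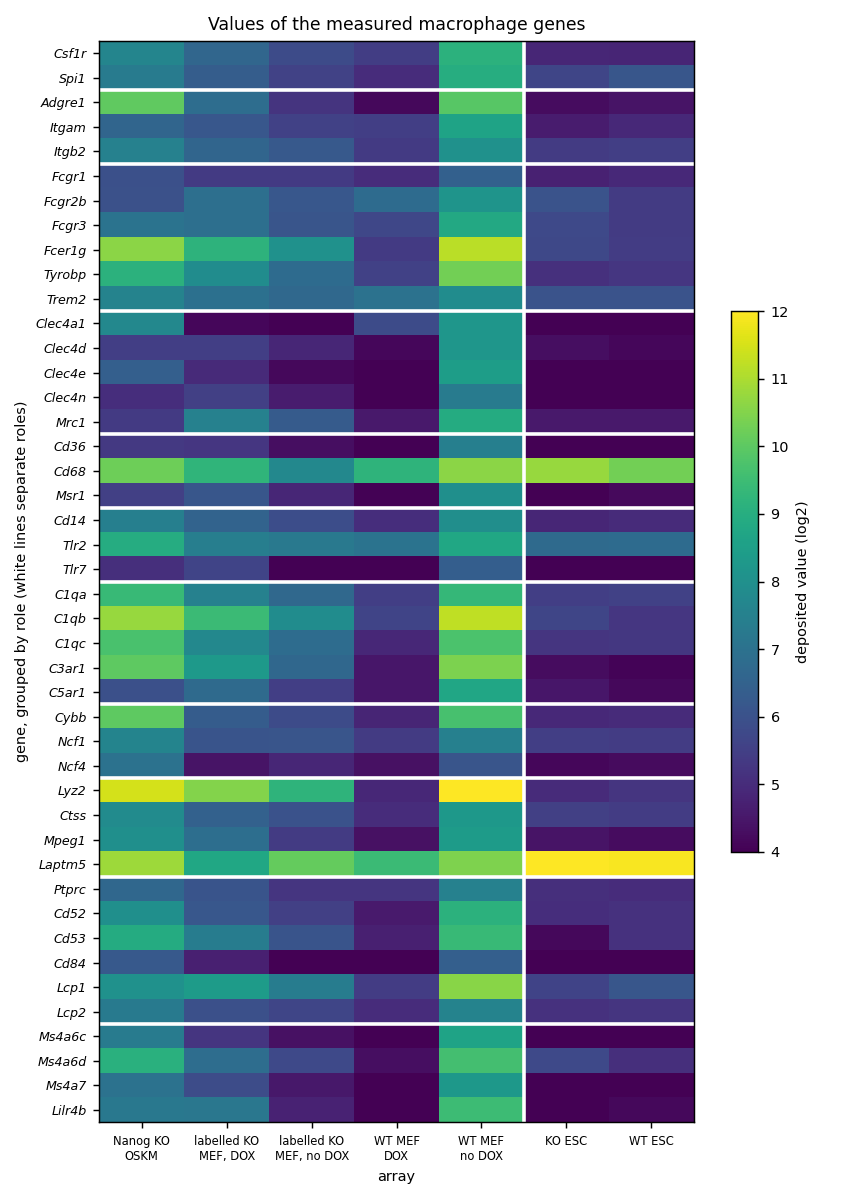
Deposited log2 values (colour) of the 44 measured macrophage genes, grouped by role from the receptor Csf1r and the transcription factor Spi1 at the top to the Ms4a and Lilr families at the bottom, on the 7 arrays. Most rows are brightest in WT MEFs without DOX and darkest in WT MEFs with DOX and the ESCs, while Cd68 and Laptm5 are above the floor in every column.

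The label of the list held in the ESCs for all but 2 genes. Cd68, a lysosomal glycoprotein of macrophages, read 10.77 in KO and 10.31 in WT ESCs, and Laptm5, a lysosomal membrane protein of blood cells, read 12.08 and 11.92. These were the only members above the floor in the ESC libraries, and the only ones in WT MEFs with DOX, where Cd68 read 9.21 and Laptm5 9.46. These 2 rows did not set MEF arrays with macrophage RNA apart from ESCs. Neither gene is known as an ESC gene and the probe sequences of their rows were not used here, so values of these rows carry a doubt over what they measure. Neither ESC array had any of the remaining 42 members above the floor. In deposited values they were higher by 2-fold or more in WT MEFs without DOX, and with values under the floor set to it 24 were. Fcgr1, Tlr7, Ncf4 and Cd84 lay under the floor in WT MEFs without DOX as well, so no fold was measured for them.

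Csf1r, the receptor for the macrophage growth factor Csf1, and Spi1 had the order of the whole list in deposited values. Csf1r read 7.64 on the Nanog KO array, 6.63 on the array labelled KO with DOX, 5.83 on the array labelled KO without DOX, 5.44 in WT MEFs with DOX and 9.15 in WT MEFs without DOX, against 4.87 and 4.82 in KO and WT ESCs. Spi1 read 7.33, 6.36, 5.58, 5.0 and 8.99 on the same 5 arrays, against 5.69 and 6.16 in KO and WT ESCs. Both genes were above the floor in WT MEFs without DOX, and of the other arrays only the Nanog KO array had 1 of them, Csf1r, above it.

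The surface proteins that define macrophages in sorting were likewise high in WT MEFs without DOX. Adgre1, which encodes the antigen F4/80, read 10.04 on the Nanog KO array, 6.85 on the array labelled KO with DOX, 5.21 on the array labelled KO without DOX, 4.18 in WT MEFs with DOX and 9.91 in WT MEFs without DOX, against 4.28 and 4.43 in KO and WT ESCs. Only the Nanog KO array and WT MEFs without DOX had it above the floor. Itgam and Itgb2, the chains of the integrin Mac-1, read 8.65 and 8.04 in WT MEFs without DOX, while on the other arrays only Itgb2 on the Nanog KO array, at 7.53, was above the floor.

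Among the Fc receptors, which bind antibody, and their adaptors, the adaptors carried the widest range. Fcer1g, the signalling chain shared by several Fc receptors, read 10.62 on the Nanog KO array, 9.17 on the array labelled KO with DOX, 8.04 on the array labelled KO without DOX, 5.36 in WT MEFs with DOX and 11.17 in WT MEFs without DOX, against 5.73 and 5.43 in KO and WT ESCs. Tyrobp, the adaptor of Trem2 and other receptors, read 9.13, 7.90, 6.79, 5.55 and 10.30 on the same 5 arrays. Trem2, a lipid-sensing receptor, spanned little by comparison, at 7.57, 6.95, 6.71, 7.01 and 7.89, with 6.05 and 6.04 in KO and WT ESCs. Fcgr2b, the inhibitory Fc receptor, read 5.99 on the Nanog KO array and 6.81 in WT MEFs with DOX, against 8.13 in WT MEFs without DOX. Fcgr3, an activating Fc receptor, read 7.03, 6.93, 6.12, 5.71 and 8.83 on the 5 arrays, and Fcgr1, the high-affinity one, lay under the floor on all 7, at most at 6.44 in WT MEFs without DOX. Fcgr2b, Fcgr3 and Fcer1g are neighbours on chromosome 1, and in deposited values the first did not keep the order that Fcgr3 and Fcer1g kept. Fcgr2b and Fcgr3 were above the floor in WT MEFs without DOX alone, so their order among the other arrays was not measured.

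The C-type lectins bind sugars of microbes and of damaged cells. In deposited values Clec4e, Clec4d, Clec4n and Mrc1 were in the order of the list and Clec4a1 was outside it. Clec4e, which senses a glycolipid of mycobacteria, read 6.43 on the Nanog KO array, 4.95 on the array labelled KO with DOX, 4.19 on the array labelled KO without DOX, 3.58 in WT MEFs with DOX and 8.45 in WT MEFs without DOX, against 3.69 and 3.83 in KO and WT ESCs. Only WT MEFs without DOX had it above the floor. Clec4d and Clec4n read 8.20 and 7.34 in WT MEFs without DOX, and both lay under the floor on every other array. Clec4a1 read 7.72 on the Nanog KO array, 4.15 on the array labelled KO with DOX, 4.01 on the array labelled KO without DOX, 5.84 in WT MEFs with DOX and 8.20 in WT MEFs without DOX, against 3.67 and 3.93 in KO and WT ESCs. It was above the floor on the Nanog KO array and in WT MEFs without DOX. The 2 arrays labelled KO lay below WT MEFs with DOX, all in values under the floor.

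Of the scavenger receptors, which take up lipoproteins and dead cells, Cd36 and Msr1 were above the floor in WT MEFs without DOX alone, at 7.46 and 7.98. Their values on the other 6 arrays were 3.71 to 5.31 and 3.95 to 6.13. Among the receptors for microbial products, Cd14, which presents endotoxin to Tlr4, read 7.45, 6.54, 5.91, 5.06 and 7.97 on the 5 arrays of MEFs and Nanog KO fibroblasts. Tlr2, which senses bacterial lipoproteins, spanned less, at 8.94, 7.41, 7.23, 7.03 and 8.77, with 6.78 and 6.79 in KO and WT ESCs. Tlr7, a receptor for single-stranded RNA, lay under the floor on all 7 arrays, with 6.39 in WT MEFs without DOX as its highest value.

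The complement genes shared the order of the list. C1qa, C1qb and C1qc, the chains of the first complement component, are neighbours on chromosome 4. C1qb read 10.76 on the Nanog KO array, 9.46 on the array labelled KO with DOX, 7.88 on the array labelled KO without DOX, 5.65 in WT MEFs with DOX and 11.25 in WT MEFs without DOX, against 5.67 and 5.26 in KO and WT ESCs. C1qa and C1qc took the same order among the 4 Utx MEF libraries, with 5.49 and 4.89 in WT MEFs with DOX, against 9.32 and 9.73 in WT MEFs without DOX. C3ar1, a receptor for a complement fragment, read 10.01, 8.30, 6.67, 4.49 and 10.43 on the 5 arrays.

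Lyz2, a lysozyme gene of macrophages and other myeloid cells, had the widest range of all members. It read 11.50 on the Nanog KO array, 10.52 on the array labelled KO with DOX, 9.19 on the array labelled KO without DOX, 4.88 in WT MEFs with DOX and 12.06 in WT MEFs without DOX, against 5.0 and 5.24 in KO and WT ESCs. It lay above the floor on each of the 5 arrays except that of WT MEFs with DOX. The gene of the oxidase subunit gp91phox, Cybb, read 10.02, 6.33, 5.82, 4.83 and 9.66 on the same arrays, so that only the Nanog KO array and WT MEFs without DOX had it above the floor.

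The oxidase subunits Ncf1 and Ncf4 were highest on the Nanog KO array. Ncf1 read 7.62 on the Nanog KO array, 6.07 on the array labelled KO with DOX, 6.11 on the array labelled KO without DOX, 5.39 in WT MEFs with DOX and 7.48 in WT MEFs without DOX, against 5.48 and 5.42 in KO and WT ESCs, and Ncf4 read 7.02, 4.42, 4.85, 4.36 and 6.11 on the first 5, under the floor on all 7 arrays. Of the other lysosomal genes, Ctss, a protease of antigen processing, read 7.87, 6.47, 6.01, 5.01 and 8.27, and Mpeg1, a pore-forming protein of macrophages, read 7.98, 6.89, 5.40, 4.36 and 8.40. Both were above the floor on the Nanog KO array and in WT MEFs without DOX, and under it on the others.

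The genes shared by most blood cells ran in the same order in deposited values. Ptprc, the phosphatase CD45 that marks leukocytes, read 6.66 on the Nanog KO array, 6.09 on the array labelled KO with DOX, 5.24 on the array labelled KO without DOX, 5.22 in WT MEFs with DOX and 7.50 in WT MEFs without DOX, against 5.07 and 5.03 in KO and WT ESCs, and only WT MEFs without DOX had it above the floor. The surface proteins Cd52 and Cd53 read 4.57 and 4.70 in WT MEFs with DOX, against 9.14 and 9.40 in WT MEFs without DOX. Lcp1, an actin-bundling protein, read 8.06 on the Nanog KO array, 8.38 on the array labelled KO with DOX, 7.35 on the array labelled KO without DOX, 5.41 in WT MEFs with DOX and 10.58 in WT MEFs without DOX, against 5.61 and 6.15 in KO and WT ESCs. Lcp2, an adaptor of immune receptor signalling, read 7.31, 5.96, 5.67, 5.02 and 7.56 on the first 5 arrays, and Cd84, a receptor of the SLAM family, was under the floor on all 7, at most at 6.42 in WT MEFs without DOX.

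The Ms4a and Lilr families encode membrane proteins, and their 4 members followed the list in deposited values. Ms4a6d read 9.08 on the Nanog KO array, 6.87 on the array labelled KO with DOX, 5.77 on the array labelled KO without DOX, 4.31 in WT MEFs with DOX and 9.60 in WT MEFs without DOX, against 5.78 and 5.09 in KO and WT ESCs. Ms4a6c and Ms4a7, its neighbours on chromosome 19, read 7.34, 5.25, 4.36, 3.85 and 8.64 and 7.02, 5.86, 4.52, 3.93 and 8.27 on the first 5 arrays. Lilr4b read 7.20, 7.17, 4.78, 3.97 and 9.48. Its values on the Nanog KO array and the array labelled KO with DOX lay close, but both were under the floor. The Nanog KO array also has the higher median over all rows. Of the 4 only Ms4a6d was above the floor on the Nanog KO array, and all 4 were above it in WT MEFs without DOX. On the other Utx MEF arrays all 4 lay under it, so their order there was not measured.

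In MEFs without DOX, the deposited values of all 44 members were lower on the array labelled KO than in WT. The median difference was -3.05, beside -0.11 for all 9253 genes above the floor. Of the 40 members above the floor on either array, 39 were 2-fold or more lower in deposited values and 0 were higher, against 9.53% of all genes lower and 5.04% higher. Those 40 passed the floor through WT MEFs, where they were high, so their direction was nearly fixed. For 34 of the 39 the value on the array labelled KO lay under the floor, so their folds are lower bounds with that side set to the floor: C3ar1 was at least 8.51-fold lower and Tyrobp at least 7.77-fold lower. The other 5, Fcer1g, Cd68, C1qb, Lyz2 and Lcp1, were above the floor in both libraries and were between 7.29-fold (Lyz2) and 10.3-fold (C1qb) lower. The Cd68 row, high in ESCs too, carries the doubt given above. Lcp1 was 9.39-fold lower. With values under the floor set to it, the median difference was -1.30 and 25 of the 39 were still lower by 2-fold or more. The bound of the other 14 was below that, with Clec4n lowest, since it read 7.34 in WT MEFs, beside the floor, and Cd36 at 1.09-fold.

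The deposited differences of Lilr4b, Adgre1, Ms4a6c and Clec4e were -4.71, -4.70, -4.28 and -4.26. Their values on the array labelled KO lay under the floor, so they were shown to be at least 4.42-fold, 5.95-fold, 2.46-fold and 2.16-fold lower. Laptm5 departed from the common shift by 2.71 with both libraries above the floor, at 10.12 on the array labelled KO and 10.46 in WT. Fibroblast markers had a median of 11.25 on the array labelled KO without DOX and 11.85 in WT MEFs without DOX, with 17 of 17 above the floor in both, and epithelial markers 7.13 and 5.99. The part of these differences in the macrophage result was not tested.

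In WT MEFs, the deposited values of all 44 members were lower with DOX than without. The median difference was -3.89, beside 0.00 for all 9524 genes above the floor. For 38 of 40 above the floor the deposited value was lower by 2-fold or more, and for 0 it was higher, against 13.7% of all genes lower and 11.9% higher. Here too the 40 passed the floor through WT MEFs without DOX, and with values under the floor set to it 25 of the 38 were shown to be that much lower, with a median of -1.30. Lyz2 was at least 26.4-fold lower, C1qb at least 15-fold, Fcer1g at least 14.3-fold and Lcp1 at least 9.44-fold. For 37 of the 38 the value with DOX was under the floor, the exception being Cd68 at 2.63-fold lower. Laptm5, at -0.99, departed from the common shift with Cd68, and both rows carry the doubt given above. Fibroblast markers were lower as well, at a median of 8.49 with DOX and 11.85 without, and epithelial markers were higher, at 11.23 and 5.99, so markers of the other cells in the dish differed between these arrays too. Their part in the macrophage result was not tested.

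**Figure D3:**
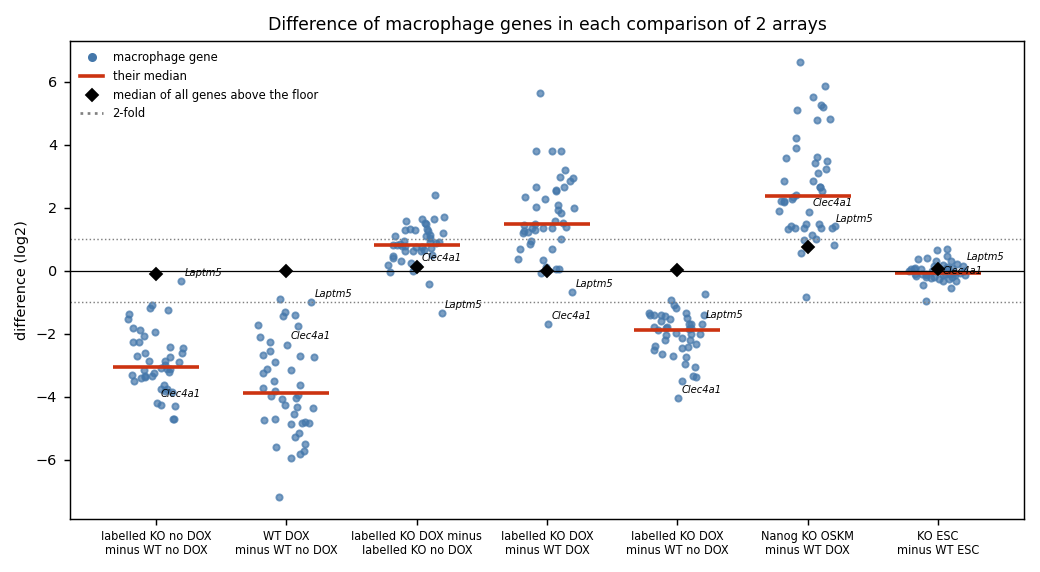
Log2 difference of each of the 44 macrophage genes (points) in the 7 comparisons of 2 arrays, named as first minus second library, with their median (red line), the median of all genes above the floor (black diamond) and lines at 2-fold. Every point lies below 0 in the 3 comparisons with WT MEFs without DOX, and the Nanog KO comparison stands on a shift of 0.76 in all genes.

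Cd68 and Laptm5 apart, no member was above the floor in WT MEFs with DOX. On a linear scale, each member's signal above its mean in the ESCs was set against that of WT MEFs without DOX for the 42 members 2-fold higher there. The median was -0.083% in WT MEFs with DOX, with 23 of the 42 below 0 and quartiles of -0.795% and 1.02%. Trem2 at 36.6%, Fcgr2b at 25.9% and Clec4a1 at 15.5% stood above the rest. All 3 read under the floor in WT MEFs with DOX, at 7.01, 6.81 and 5.84. Clec4a1 neighbours C3ar1, Clec4n, Clec4d and Clec4e on chromosome 6, and these 4 lay between -0.487% and 0.316% in the same library.

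The array labelled KO with DOX had higher deposited values for most members than either the array labelled KO without DOX or WT MEFs with DOX, but 31 of the 44 lay under the floor on both arrays of each comparison. Against the array labelled KO without DOX, 40 of the 44 members were higher. The median difference over all 44 was 0.83, and 0 with values under the floor set to it. For the 9119 genes above the floor it was 0.13. Of the 13 members above the floor on either array, 9 were 2-fold or more higher in deposited values, against 6.81% of all genes higher, and 1, Laptm5, was lower, against 2.93% of all genes lower. All 13 were above the floor on the array labelled KO with DOX and only 6 on the one without. The direction of the others was thus fixed. C1qb was 2.98-fold higher, Cd68 2.86-fold, Lyz2 2.51-fold and Fcer1g 2.19-fold, all with both libraries above the floor. For Cd68 the doubt over what its row measures holds here too. Laptm5 read 8.77 on the array labelled KO with DOX and 10.12 in the one labelled KO without DOX, 2.55-fold lower. With values under the floor set to it, 6 of the 10 were shown to differ by 2-fold or more, 5 of them higher. Fcgr1, Ncf1 and Ncf4 differed by -0.00, -0.04 and -0.42, under the floor in both libraries. Epithelial markers had a median of 5.99 on the array labelled KO with DOX, against 7.13 on the one labelled KO without DOX, with 6 of 7 above the floor lower by 2-fold or more and Cdh1, the gene of E-cadherin, at 5.52 and 9.54. Fibroblast markers had medians of 11.46 and 11.25. The part of these in the difference was not tested.

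Against WT MEFs with DOX, 41 of the 44 members were higher on the array labelled KO with DOX. The median over all 44 was 1.47, and 0 with values under the floor set to it. For the 9572 genes above the floor it was -0.00. Of the 13 above the floor on either array, 10 were 2-fold or more higher in deposited values and 0 lower, against 14.3% of all genes higher and 12.1% lower. All but Cd68 and Laptm5 passed the floor through the array labelled KO with DOX, so their direction was fixed, and 4 of the 10 were shown to be that much higher with the floor set. Lyz2 was at least 9.09-fold higher, C1qb at least 4.34-fold, Fcer1g at least 3.56-fold and Lcp1 at least 2.05-fold. Laptm5 was lower, at -0.69, with both arrays above the floor. Clec4a1 was lower too, at 4.15 on the array labelled KO with DOX and 5.84 in WT MEFs with DOX, both under the floor. Fibroblast markers had a median of 11.46 on the array labelled KO with DOX, against 8.49 in WT MEFs with DOX, and epithelial markers 5.99, against 11.23. The part of these in the difference was not tested.

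Against WT MEFs without DOX, the array labelled KO with DOX had lower deposited values for all 44 members. The median difference was -1.88 beside 0.01 for all 9024 genes above the floor. For 39 of 40 above the floor the deposited value was lower by 2-fold or more, and for 0 it was higher, against 2.63% of all genes lower and 1.88% higher. Again the 40 passed the floor through WT MEFs without DOX, where they were high, so their direction was nearly fixed. For 26 of the 39 the value on the array labelled KO with DOX lay under the floor. With values under the floor set to it, the median was -1.33 and 26 of the 39 were that much lower. The fibroblast median was 11.46 in this library and 11.85 in WT MEFs without DOX, and the epithelial median was 5.99 in both, so the levels of these lists lay close on the 2 arrays. Of the 39, 13 were above the floor on both arrays, and among these Tyrobp was 5.27-fold lower, Lcp1 4.60-fold, C3ar1 4.39-fold and Tlr2 2.56-fold. This comparison shares arrays with those above, which are thus not independent of it.

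As a share of the signal of WT MEFs without DOX, the array labelled KO with DOX stood at a median of 18.4% with quartiles of 12.4% and 23.3%. The array labelled KO without DOX stood at 6.09% with quartiles of 3.19% and 9.46%. With DOX, Tlr7 was highest at 51.3%, followed by Mrc1 at 34.4%, Lyz2 at 33.9% and Trem2 at 33.6%. Tlr7 lay under the floor on all 7 arrays, so its share was not measured, and Trem2 lay under it on this array. Clec4a1 at 1.35%, Spi1 at 4.68% and Clec4e at 5.14% were lowest, all with values under the floor on this array. On the array labelled KO without DOX the highest were Trem2 at 22.5%, Fcgr1 at 21.5% and Ncf4 at 20.7%, all 3 with values under the floor. Values near the floor carry little measured signal, and log2 values made by RMA (background correction, normalization and probe summary) compress low ones, so the shares describe these arrays and are no cell counts.

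**Figure D4:**
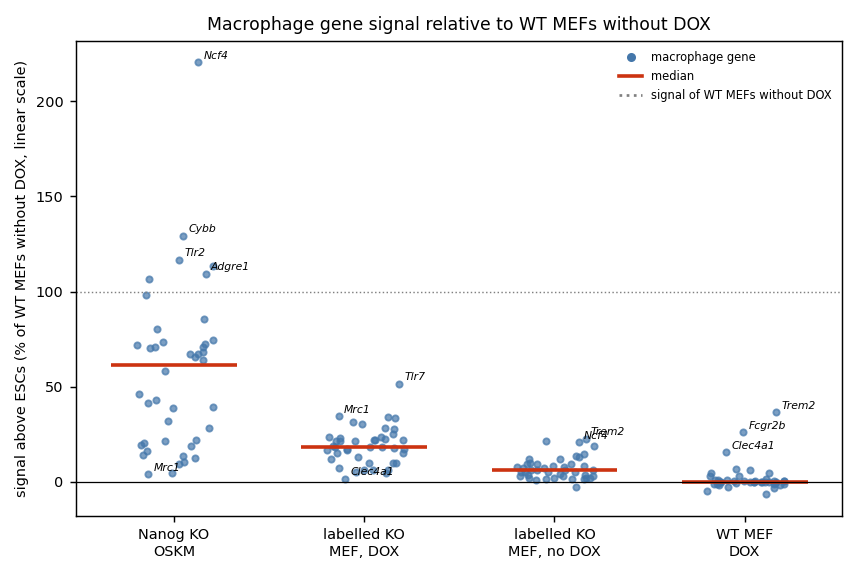
Signal of 42 macrophage genes above their mean in the ESCs, on a linear scale, as a percentage of the signal in WT MEFs without DOX (points), with the median (red line). Medians were 61.3% on the Nanog KO array, 18.4% and 6.09% on the arrays labelled KO with and without DOX and -0.083% in WT MEFs with DOX. The points of the Nanog KO array spread from 3.92% (Mrc1) to 221% (Ncf4), both with values under the floor on that array.

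On the Nanog KO array the member median was 7.55, against 6.63 on the array labelled KO with DOX, in deposited values. With the array medians aligned these were 6.89 and 6.74, and with quantile normalization 6.89 and 6.8, so most of the gap between them went with the scaling. Against WT MEFs with DOX, 43 of the 44 members were higher, with a median of 2.36 beside 0.76 for all 10833 genes above the floor. For 23 of 24 above the floor the value was higher by 2-fold or more, and for 0 it was lower, against 37.2% of all genes higher and 5.53% lower. All of the 24 but Cd68 and Laptm5 passed the floor through the Nanog KO array, so their direction was fixed. With values under the floor set to it, the median was 0.21 and 14 of the 23 were shown to be higher by 2-fold or more. Lyz2 was at least 17.8-fold higher, C1qb at least 10.7-fold, Fcer1g at least 9.70-fold, Adgre1 at least 6.5-fold and Cybb at least 6.42-fold. With the array medians aligned the median was 1.62 and 13 members were 2-fold or more higher, so the size of this difference depends on the scaling. The cells also differ from the MEFs in line and in how the factors were delivered, which cannot be told apart from genotype here. Fibroblast markers had a median of 12.13 on the Nanog KO array and 8.49 in WT MEFs with DOX, and epithelial markers 8.16 and 11.23, with 14 of 14 lower by 2-fold or more. Their part in the macrophage result was not tested.

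The shares spread more widely on the Nanog KO array than on the arrays labelled KO. The median was 61.3%, with quartiles of 20.6% and 73.4%, and with the array medians aligned it was 26.3%, with quartiles of 8.67% and 41.2%. The 3 oxidase subunits stood above the signal of WT MEFs without DOX, with Ncf4 at 221%, Cybb at 129% and Ncf1 at 114%, and so did Tlr2 at 117%, Adgre1 at 109% and C1qa at 107%. With the array medians aligned these were 117% for Ncf4, which lay under the floor on all 7 arrays, 75.8% for Cybb, 55.0% for Ncf1, 56.4% for Tlr2, 64.5% for Adgre1 and 60.8% for C1qa. At the other end Mrc1 was at 3.92%, Fcgr2b at 4.32%, Clec4d at 9.47%, C5ar1 at 10.3%, Msr1 at 12.4% and Clec4n at 13.3%. With the array medians aligned these were 0.325%, -6.74%, 2.99%, 4.22%, 4.58% and 4.45%. All of them had values under the floor on the Nanog KO array, so these shares were not measured. For Mrc1 the values were 5.37 on the Nanog KO array, 7.50 on the array labelled KO with DOX, 6.29 on the array labelled KO without DOX, 4.54 in WT MEFs with DOX and 8.91 in WT MEFs without DOX, against 4.55 and 4.56 in KO and WT ESCs. The Nanog KO array was thus under the floor for Mrc1 although its median over all rows was the highest of the 7, and the array labelled KO with DOX was above it. C5ar1, the receptor of the complement fragment C5a, read 5.97, 6.76, 5.48, 4.48 and 8.74 on the 5 arrays.

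KO and WT ESCs did not differ in these genes by 2-fold. The median difference was -0.06 over the members and 0.06 over the 8598 genes above the floor. In deposited values 25 members were lower and 19 higher, and the range was -0.98 (Cd53) to 0.69 (Ms4a6d). Only Cd68 and Laptm5 were above the floor, and 0 of these were past 2-fold, against 3.18% of all 8598 genes lower and 0.651% higher. The remaining values lay under the floor, where a difference was not detectable.

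Other myeloid genes outside the list showed the same order of libraries in part. Of the 9 measured genes of pattern recognition, 6 were above the floor in WT MEFs without DOX. Of the 6 above the floor on either array, 5 were 2-fold or more lower on the array labelled KO without DOX than in WT. Of all genes, 9.53% were. In WT MEFs with DOX, 3 of 6 were lower than without, against 13.7% of all genes. Medians of all 9 were -2.33 and -2.29. In both comparisons most of the 6 passed the floor only through WT MEFs without DOX, so their direction was fixed. Cd180 and its partner Ly86, which bind together on leukocytes, read 6.98 and 6.82 on the Nanog KO array, 6.42 and 5.76 on the array labelled KO with DOX, 5.35 and 5.17 on the array labelled KO without DOX, 4.85 and 4.53 in WT MEFs with DOX and 7.81 and 8.23 in WT MEFs without DOX. Tlr4, which senses endotoxin, did not keep that order, with 7.33, 6.12, 4.24, 7.25 and 7.36. Its partner Ly96 read 10.54, 8.86, 6.92, 9.27 and 9.11.

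Myeloid signalling genes had a median difference of -0.78 over 12 genes on the array labelled KO without DOX against WT, with 4 of 6 above the floor lower. It was -1.40 in WT MEFs with DOX against those without, with 5 of 6 lower. Rac2, a GTPase of blood cells, read 7.30 on the array labelled KO with DOX, 6.68 on the array labelled KO without DOX, 6.08 in WT MEFs with DOX and 9.04 in WT MEFs without DOX. The 8 myeloid transcription factors had medians of -0.86 and -1.41 in the same comparisons, with 3 of 5 and 4 of 5 lower. The 7 other macrophage surface genes had medians of -1.21 and -1.91, with 3 of 4 and 4 of 5 lower. The 12 lysosomal enzyme genes, used by most cells, had medians of -0.48 and -0.50, with 0 and 3 of 12 lower. These counts are of genes lower by 2-fold or more, as were 9.53% and 13.7% of all genes in the same comparisons. Apart from the lysosomal genes, most of the counted genes passed the floor only through WT MEFs without DOX, so their direction was fixed.

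Csf1, the ligand of Csf1r and a product of fibroblasts, read 9.55 on the Nanog KO array, 9.96 on the array labelled KO with DOX, 9.35 on the array labelled KO without DOX, 5.96 in WT MEFs with DOX and 10.83 in WT MEFs without DOX, against 6.85 and 9.16 in KO and WT ESCs. It was thus above the floor in each MEF library except WT MEFs with DOX. Il34, the other ligand of this receptor, read 6.35, 6.10, 7.09, 8.58 and 6.72 on the 5 arrays and was above the floor only in WT MEFs with DOX. Of the 4 measured genes of growth factor ligands and receptors, 1 of 2 above the floor was lower on the array labelled KO without DOX than in WT, and 1 of 3 was lower and 1 higher with DOX in WT MEFs. The shares of all genes were 9.53% lower in the first comparison, and 13.7% lower and 11.9% higher in the second.

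Markers of other blood and vessel cells were few among the measured genes. No neutrophil marker was measured, and of T and NK cells only Cd3e, of B cells only Cd79b and Igll1, all 3 under the floor in the MEF and Nanog KO libraries. The 2 mast cell and basophil markers measured were Kit and Gata2, which other cells also use, and the 2 erythroid ones Tfrc and Hbb-y. Hbb-y, an embryonic globin, read 10.58 on the Nanog KO array and 8.47 in WT MEFs with DOX, against 4.09 in WT MEFs without DOX. Pf4, a platelet chemokine that macrophages can also make, read 6.25 on the array labelled KO with DOX, 5.60 on the array labelled KO without DOX, 5.09 in WT MEFs with DOX and 8.05 in WT MEFs without DOX. Ppbp, another platelet chemokine, read 10.94, 9.61, 5.26 and 9.15 on these 4 arrays and 5.08 on the Nanog KO array, an order unlike that of the macrophage genes. Endothelial markers had a median of 5.55, 6.46, 7.02 and 6.07 in these 4 libraries. Genes of antigen presentation and dendritic cells had medians of 6.16, 6.46, 6.02 and 6.99, with 2 of 5 above the floor in WT MEFs without DOX, and osteoclast markers medians of 7.49, 6.84, 6.65 and 7.86. Of the microglia list, Fcrls read 7.66, 6.63, 4.86 and 9.69, and the list median, 8.50, 7.35, 7.59 and 9.62, included Olfml3 and Tmem119, which read 11.36 and 9.56 in WT MEFs without DOX. Pluripotency markers had medians of 5.17 to 6.58 on the 5 arrays and of 11.36 and 11.26 in KO and WT ESCs.

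**Figure D5:**
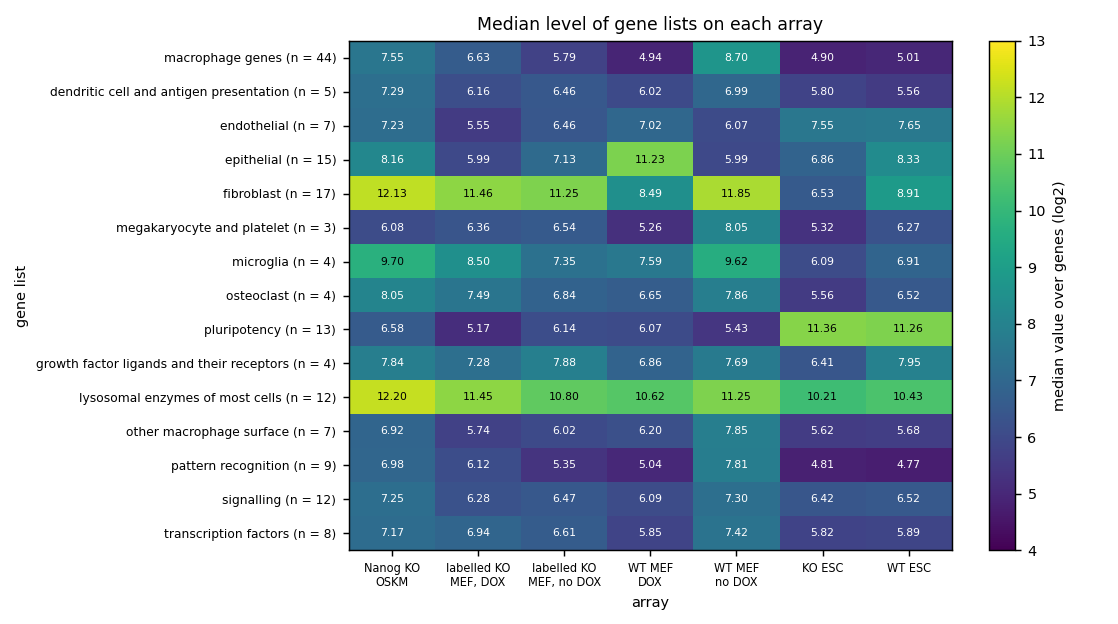
Median log2 value (colour and number) over the measured genes of each list on the 7 arrays, for lists with at least 3 measured genes. The macrophage row is highest in WT MEFs without DOX (8.70) and at ESC levels in WT MEFs with DOX (4.94), where the epithelial row is highest (11.23) and the fibroblast row lowest among the MEFs (8.49).

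The genes outside the list whose values over the 7 arrays were most like the median of the members were ranked by their likeness to it. Pearson's r was taken over 4086 genes with a range of at least 2, as a description, since the 7 arrays share the conditions that set the profile. Ccl3, a macrophage chemokine, came first at r = 0.997 with 9.38 on the Nanog KO array, 7.81 on the array labelled KO with DOX, 5.99 on the array labelled KO without DOX, 4.61 in WT MEFs with DOX and 10.93 in WT MEFs without DOX. Ms4a4d followed at 0.996 and Cd180 at 0.995. The next were Tspan18, Ly86, Fli1, Fcrls, Ifi207, Pld4, Tlr13, Ccl6, Ch25h, Rbfox1, Adcy7 and Mir143, at 0.987 to 0.966. Of the 39 members with such a range, 34 had r of 0.9 or more with the median of which they are part, and Clec4a1, Mrc1, Fcgr2b, Cd68 and Laptm5 were the others, at 0.80, 0.82, 0.66, 0.22 and -0.25. Of the genes outside the list 2.72% (110 genes) reached 0.9.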

How the data were processed

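RNA of 7 mouse samples was measured on 1 Affymetrix array each, and samples were grouped by their titles. The deposited values are on a log2 scale and came from RMA in Affymetrix Expression Console, according to the tools named per the submitters' processing notes. No version or build, and no statement on whether the Nanog KO array was normalized with the others, is given in the sources used here. The labels' protocols name a kit for 3-prime arrays, whereas probe identifiers of the table belong to a whole-transcript design. Precision is limited by the number of arrays, 1 for each condition. The table held 21811 rows with 0 missing values. Rows with 1 symbol in the platform annotation (14894) were used, those with several (925) or none listed (5992) were not, and the row with the highest mean stood for a gene. All 44 gene IDs of the members were found in RefSeq and 0 symbols changed.

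The members, the 13 lists of cell type markers and the 6 further myeloid lists were chosen with earlier results of these data known. Genes were counted at 2-fold where the higher value exceeded the floor. No test between conditions was run, since none has replicates. Members were named as departing where they lay above the floor in a MEF library whose member median was under it, where they went 2-fold against the common shift, or where, with both arrays above the floor, they lay 1.5 or more from it. The 15 genes most like the member median were named by Pearson's r. Near-identical members of the Fc receptor, Clec4, Ms4a and Lilr families could share signal between probes, and probe sequences were not used here. A planned search of protein sequences was not run. On simulated copies of WT MEFs without DOX (13562 genes, 44 members), shifts of 0, -1 and -3 planted in the members gave medians of 0.03, -1.05 and -3.05. A planted shift returns in the median by construction, so this checked the computation alone and says nothing of the measured differences. Alternatives were array scaling, the floor, the fold, the row for a gene and a shorter list. Folds against the floor, exchanged labels of the KO MEF arrays and shares of the WT signal were chosen after the data were seen. Values were computed in Python 3.11.15 (pandas 2.3.3, numpy 2.4.6, scipy 1.17.1) and drawn with matplotlib 3.10.9.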

Additional observations from a re-analysis of the deposited data

Results flagged for a closer look

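The macrophage genes went opposite ways with DOX in the 2 genotypes as labelled: the median difference was 0.83 in the MEFs labelled KO and -3.89 in WT MEFs, and 40 of 44 members were positive in the first and negative in the second. The genotype contrast turned too, with a median of 1.47 with DOX and -3.05 without, and 41 of 44 members positive in the first and negative in the second. No share of all genes stands beside these 2 counts. For the DOX difference in MEFs labelled KO and the genotype difference with DOX, 31 of the 44 members lay under the floor on both arrays. With values under the floor set to it, both medians were 0. For each gene the 2 contrasts share the same difference of differences of the same 4 arrays, so its size in the second adds nothing to the first. The signs within the 2 contrasts can still differ. With 1 array per condition neither was tested. Pou5f1 went against the labels of the KO libraries, and epithelial markers had a median of 5.99 on the array labelled KO with DOX, against 7.13 on the one labelled KO without DOX, while in WT MEFs they read 11.23 with DOX and 5.99 without. With the labels of these 2 arrays exchanged, the DOX difference in KO MEFs was -0.83, so the opposite directions with DOX hold only for the labels as given. The genotype contrast was then 0.77 with DOX and -1.88 without, so its medians kept opposite signs. For the 0.77, 38 of the 44 members lay under the floor on the array labelled KO without DOX and 42 in WT MEFs with DOX.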

How the results depend on the processing

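No paired analysis was possible because each condition has 1 array, and none could be left out of a comparison of 2 arrays. No median past 2-fold changed sign under these alternatives. Of the 77 values recomputed, the 14 from the mean over rows could not move, since 0 members have several rows. Of the other 63, 50 stayed within 1.5 times the count or within the 95% order-statistic interval of the median over members, which are not replicates, and 13 moved. For Nanog KO against WT MEFs with DOX, aligned medians gave a median of 1.62 and 13 members past 2-fold, quantile normalization 1.68 and 13, no floor 40 members and a floor at the 60th percentile (8.48) 14, against 2.36 and 23. With that higher floor the members past 2-fold were 23 for labelled KO against WT without DOX, 23 for WT MEFs with DOX against without, 24 for labelled KO with DOX against WT without DOX, 5 for labelled KO with DOX against labelled KO without and 3 for labelled KO against WT with DOX. Without a floor, labelled KO with DOX against labelled KO without had 18 and labelled KO against WT with DOX 33. The floor itself sets these counts, and fewer members pass a higher one. The split of all genes, higher and lower, was 677 and 685 with aligned medians against 466 and 882 for labelled KO against WT without DOX. For labelled KO with DOX against without it was 481 and 378 against 621 and 267, and for Nanog KO 1281 and 1299 against 4032 and 599. The list without Cd36, Cd14, Tlr2, Lcp1, Cd68 and Ctss moved none. The next 2 alternatives were chosen after the data were seen. With values under the floor set to it, the medians and members past 2-fold were -1.30 and 25 for labelled KO against WT without DOX, -1.30 and 25 for WT with DOX against without, 0 and 6 for labelled KO with DOX against labelled KO without, 0 and 4 for labelled KO against WT with DOX, -1.33 and 26 for labelled KO with DOX against WT without, and 0.21 and 14 for Nanog KO. With the labels of the 2 KO MEF arrays exchanged, the medians were -1.88 for KO against WT without DOX, -0.83 for KO with DOX against without, 0.77 for KO against WT with DOX, with 5 members past 2-fold, and -3.05 for KO with DOX against WT without.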
